A study of Homo sapiens with 12 samples.

Results

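The response of HCCC9810 cells to anlotinib was measured as the transcript levels of 15641 genes, which were those of the 58216 genes in the count table that passed an expression filter on the 6 HCCC9810 libraries. HCCC9810 is a human line established from an intrahepatic cholangiocarcinoma, which arises from bile ducts within the liver. Anlotinib is an oral inhibitor of several receptor tyrosine kinases, among them the receptors for VEGF, FGF and PDGF and the receptors KIT and RET. The study grew HCCC9810 and a further line of the same cancer, RBE, with or without the drug and read total RNA as paired ends on an Illumina instrument, 3 libraries for each of the 4 groups. The HCCC9810 control group was grown in RPMI medium with serum and without the drug. The HCCC9810 anlotinib group was grown in the same medium with 5 µM anlotinib for 24 h. The RBE anlotinib group also got 5 µM for 24 h, and the controls of both lines are given a time of 24 h. Dimethyl sulfoxide carried the drug in both lines, at 0.1% in the medium, and the labels do not say if controls got it too. Each group is 1 unmodified cell line, and the labels name no genotype, animal or allele. The submitters call the 3 libraries of a group biological replicates, and p-values measure the spread between them.

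Library numbers are those of the count table's column headers, control 7, 8 and 9 and anlotinib 10, 11 and 12. The sample titles give the numbers 7 to 9 to treated and 10 to 12 to control cultures, so the numbers and the words conflict. RBE has the same conflict, with headers that number controls 1 to 3 and treated cultures 4 to 6 and titles that do the reverse. Groups of both lines were taken from the words in the headers. If the numbers were followed in both lines, every fold change and every difference between lines below would keep its size and change its sign. If they were followed in 1 line only, the differences between lines would change in size too.

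Receptor tyrosine kinases pass growth signals to the ERK and PI3K pathways, which drive entry into the cell cycle. Cells keep their sterol supply constant through SREBP transcription factors, which are held in the endoplasmic reticulum while sterols are plentiful and turn on the enzymes of cholesterol and fatty acid synthesis when sterols in that membrane fall. Genes of DNA synthesis are driven mainly by E2F factors at the start of S phase, and genes of mitosis mainly by the DREAM and MuvB-FOXM1 complexes, which read a CHR element and CCAAT boxes in the promoter.

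Totals ran from 16240478 to 22567927 counts in the control libraries and from 15215193 to 17722970 in the anlotinib libraries. Treatment separated the libraries along the first principal component, which held 58.8% of the variance of log2 CPM (scaled counts per total). Control library 7 stood apart from controls 8 and 9 along the main axis of differences within groups, at 21.8 against -10.2 and -11.6, and the anlotinib libraries lay at 11.97, -17.3 and 5.31 on it. Gene weights on that axis followed the GC content of the transcripts (Spearman rho of 0.684 over 9978 genes, which do not count as replicates). Of the markers of bile duct epithelium, KRT7, KRT19, KRT8, KRT18, EPCAM, SOX9 and MUC1 were well covered, while CDH1, which encodes E-cadherin, held 12 counts in all controls together. Endothelial markers made up 0.00353% to 0.00426% of control counts, and fibroblast and immune markers are given beside the results they move with. Of the 11 receptors that anlotinib is known to inhibit, only FGFR1, FGFR2, FGFR3 and FGFR4 passed the filter, and none of the 4 was called. FLT1, KDR, FLT4, PDGFRA, PDGFRB, KIT and RET were left out, with 2 to 17 counts each over the 3 controls.

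After 24 h of anlotinib, 1857 genes rose (11.9% of those tested) and 1915 fell (12.2%), by edgeR's quasi-likelihood F-test at a Benjamini-Hochberg adjusted p below 0.05. The CPM ranges of the groups did not overlap for 41.6% of tested genes. The change was at least 2-fold for 353 of the genes that rose (2.26%) and for 715 of those that fell (4.57%). The median log2 fold change of all tested genes was -0.03, which is the value to set beside each list's median below. Among genes of at least 5 CPM in the higher group whose ranges did not overlap, the largest rises were led by ALDOC, a glycolytic aldolase, by the sterol genes MVD, INSIG1, DHCR7, FDFT1, LSS, ACAT2 and MVK, by the desaturase SCD, and by CA9, PKNOX2 and FOSB. By the same rule the largest falls were those of KRT4, MAP1B, FAM111B, TENM2, SAMD9, CCNE2, AC048341.1, EDN2, MYB, ZNF117, LINC00842 and CYP24A1. The numbers of calls depended on single libraries: without control 7, 2695 genes rose and 2606 fell, 745 and 738 without control 8, 825 and 824 without control 9, 1215 and 1181 without anlotinib 10, and 990 and 962 without anlotinib 12.

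**Figure D1:**
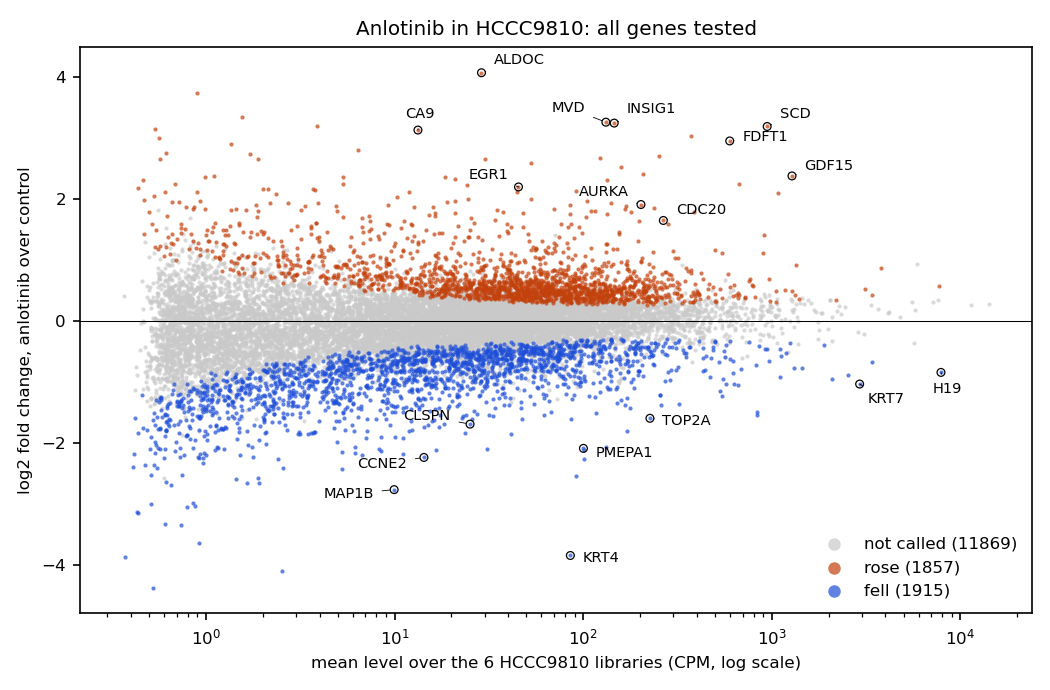
Log2 fold change of anlotinib over control (vertical axis) against the mean level over the 6 HCCC9810 libraries in CPM (horizontal axis, log scale), 1 point per tested gene, with the 1857 genes that rose in orange, the 1915 that fell in blue and genes not called in grey. ALDOC is the highest labelled point at 4.07, and KRT4 the lowest labelled point at -3.84.

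Nearly the whole pathway of cholesterol synthesis rose. All 22 enzymes of cholesterol synthesis on the list were tested, 21 rose and 1 fell, with a median log2 fold change of 2.06. The promoters of MVD, an enzyme of this list, and of INSIG1 and SCD, sterol-responsive genes of the sensing and fatty acid lists described next, are shown with their CCAAT boxes, the site of NF-Y, a factor that acts beside SREBP, in capitals (RefSeq, GRCh38.p14, from 250 bases before to 50 after the start, written 5′ to 3′ on the gene's strand).
INSIG1, chr7:155297628-155297927, plus strand: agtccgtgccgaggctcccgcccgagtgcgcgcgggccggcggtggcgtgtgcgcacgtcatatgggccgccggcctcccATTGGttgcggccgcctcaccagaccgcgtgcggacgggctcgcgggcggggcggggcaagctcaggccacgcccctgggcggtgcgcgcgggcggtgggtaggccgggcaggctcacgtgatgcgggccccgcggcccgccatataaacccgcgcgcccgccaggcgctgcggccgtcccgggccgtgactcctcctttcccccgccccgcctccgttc
SCD, chr10:100346983-100347282, plus strand: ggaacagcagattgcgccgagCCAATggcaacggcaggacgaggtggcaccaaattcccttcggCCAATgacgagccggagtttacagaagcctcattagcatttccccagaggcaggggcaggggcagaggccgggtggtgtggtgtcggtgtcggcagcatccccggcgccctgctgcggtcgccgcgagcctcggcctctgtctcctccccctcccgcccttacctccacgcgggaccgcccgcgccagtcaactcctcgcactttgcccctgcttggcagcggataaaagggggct
MVD, chr16:88663042-88663341, minus strand: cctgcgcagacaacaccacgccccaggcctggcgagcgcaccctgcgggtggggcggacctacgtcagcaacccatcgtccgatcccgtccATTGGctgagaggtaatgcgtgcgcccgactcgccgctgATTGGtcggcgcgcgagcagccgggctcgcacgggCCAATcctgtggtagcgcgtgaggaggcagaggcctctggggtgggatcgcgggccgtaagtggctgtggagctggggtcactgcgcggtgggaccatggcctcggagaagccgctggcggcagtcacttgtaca
A CCAAT box on either strand was found in 12 of the 17 cholesterol enzymes with a promoter in that set (70.6%), against 35.7% of all 27305 promoters. It was not particular to this list. The box was found in 17 of 20 promoters of endoplasmic reticulum chaperones, a list in which 0 genes rose and 8 fell. Its share was 83.3% in kinesins of mitosis and 23.8% in glycolysis genes. The sterol regulatory element in the spelling TCACNCCAC was found in 0 of the 17 cholesterol promoters and in 1.15% of all promoters. A match or its absence concerns these letters in this window only.

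INSIG1, the protein that retains the SREBP complex in the endoplasmic reticulum and is itself an SREBP target, stood at 26.7, 28.9 and 27.8 CPM in controls 7, 8 and 9 and at 248, 287 and 258 CPM in anlotinib libraries 10, 11 and 12. The groups were far apart and the replicates close together, and the log2 fold change was 3.25 ± 0.10 (SE, edgeR adjusted p = 8.28e-07). MVD, which makes isopentenyl pyrophosphate, went from 24.9 ± 4.02 CPM (SD, n = 3) to 239 ± 56.5 CPM, a log2 fold change of 3.26 ± 0.20.

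Along the pathway the log2 fold changes before squalene were 2.68 for ACAT2, 2.42 for HMGCS1, 2.66 for MVK, 0.64 for PMVK, 2.01 for IDI1 and 2.31 for FDPS. FDFT1, which commits farnesyl pyrophosphate to sterols, stood at 140, 132 and 138 CPM in controls and at 875, 1037 and 1266 CPM with anlotinib, a log2 fold change of 2.95 ± 0.14. After squalene they were 1.84 for SQLE, 2.71 for LSS, 2.11 for CYP51A1, 1.43 for TM7SF2, 0.63 for LBR, 2.52 for MSMO1, 1.97 for NSDHL and for HSD17B7, 1.86 for EBP, 1.21 for SC5D and 3.04 for DHCR7, the last enzyme before cholesterol. GGPS1, which sends farnesyl pyrophosphate away from sterols to protein prenylation, was the member that fell, at -0.83 ± 0.22 (edgeR adjusted p = 0.0277). Its call was lost without control 8 (adjusted p = 0.0901), without control 9 (0.112), without anlotinib 10 (0.0615) and without anlotinib 12 (0.0819). The calls of PMVK and LBR were also lost without single libraries, PMVK without control 8 (0.0553) and anlotinib 12 (0.0556) and LBR without control 9 (0.0561) and anlotinib 10, 11 and 12 (0.0611 to 0.0643). The exon bases of ACAT2 overlap another gene by 52.3%, those of CYP51A1 by 83.2%, those of GGPS1 by 41%, those of FDPS by 18.6%, those of HMGCS1 by 15% and those of IDI1 by 14.8%, and the strand setting of the counting was not given. Together the 22 genes took 0.111% to 0.115% of counts in the controls and 0.457% to 0.575% in the anlotinib libraries.

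Sensors and uptake genes of the same system split. Among 12 tested members 5 rose and 1 fell. SREBF2, the SREBP that drives cholesterol genes, rose by 1.79 ± 0.11, SREBF1, the one that drives fatty acid genes, by 1.04 ± 0.19, and STARD4, a sterol carrier, by 1.88. INSIG2, a related retention protein, was not called (edgeR adjusted p = 0.993), nor was SCAP, the escort of SREBP, at 0.05. MBTPS2, a protease that releases SREBP, was the member that fell, at -0.50, with 13.4% of its exon bases shared with another gene, and its call was lost without control 8 (edgeR adjusted p = 0.105), control 9 (0.102), anlotinib 10 (0.0916) and anlotinib 12 (0.0509). The exporters ABCA1 and ABCG1, known targets of the sterol-activated LXR receptors, went the other way: ABCA1 stood at 38.8, 63.9 and 69.7 CPM in controls and at 21.6, 30.9 and 19.8 CPM with the drug. That was a log2 fold change of -1.25 ± 0.24 (edgeR adjusted p = 0.00841) with no overlap between groups, and ABCG1 fell by 1.47 on the log2 scale. NPC1, which moves cholesterol out of lysosomes, rose by 1.13. The list of sterol efflux and LXR genes held 9 tested members, of which 3 rose and 2 fell, with a median of 0.34. In that list 1 rose without control 8, control 9 or anlotinib 12 and 2 without anlotinib 10.

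Fatty acid synthesis and desaturation held 20 tested genes, of which 11 rose and 1 fell, with a median of 0.53. SCD, which makes monounsaturated fatty acids, stood at 181, 186 and 191 CPM in controls and at 1749, 1625 and 1732 CPM with anlotinib, a log2 fold change of 3.19 ± 0.10 (edgeR adjusted p = 8.28e-07). FASN, the fatty acid synthase, went from 406 ± 42.7 to 1738 ± 251.2 CPM, a log2 fold change of 2.10 ± 0.14. ACSS2 and ACLY, which supply acetyl-CoA, rose by 1.76 and 1.14, and the desaturases FADS1 and FADS2 by 1.26 and 1.16. Among 16 lipid droplet and glycerolipid genes 5 rose and 0 fell, led by the phosphatidate phosphatase LPIN1 at 1.55, the lipolysis inhibitor G0S2 at 1.52 and the droplet coat protein PLIN2 at 1.36.

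**Figure D2:**
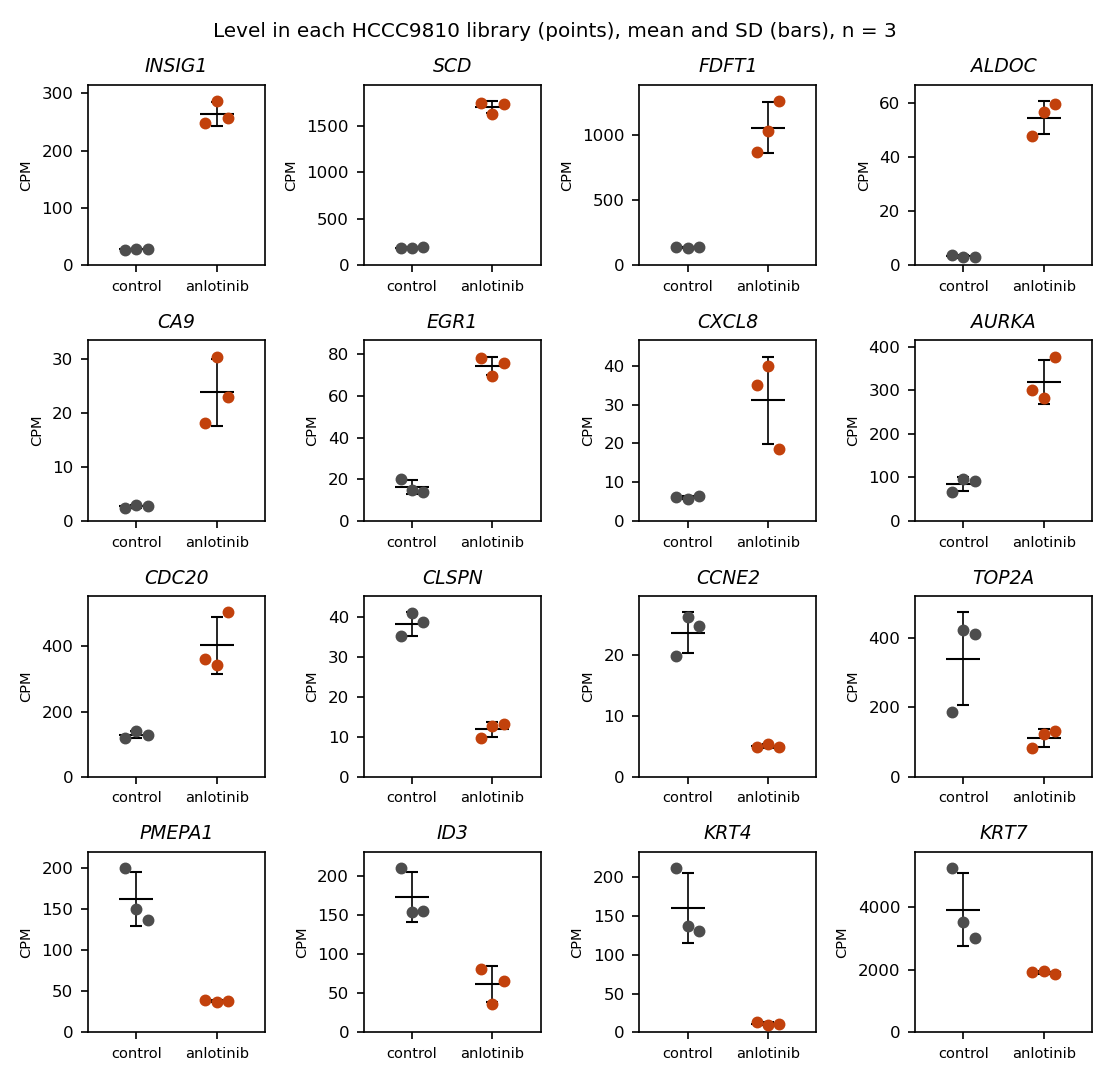
Level in CPM (vertical axis, from 0) of 16 genes in each of the 3 control libraries (grey points) and 3 anlotinib libraries (orange points) of HCCC9810, with the mean and SD of each group as bars. The groups do not overlap for any gene shown, against 41.6% of all tested genes. INSIG1, SCD and FDFT1 sit far above their controls while KRT4, CCNE2 and PMEPA1 sit far below.

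Many genes that respond to growth factor and stress kinase signalling rose. Of 18 genes of ERK feedback and early response 10 rose and 0 fell, with a median of 0.76, and 8 rose without control 8 and 7 without control 9. EGR1, an immediate early transcription factor, stood at 19.9, 15.1 and 13.7 CPM in controls and at 78.1, 69.7 and 75.7 CPM with the drug, a log2 fold change of 2.2 ± 0.15 (edgeR adjusted p = 8.37e-05). The ERK phosphatases DUSP5 and DUSP4 rose by 1.91 and 0.91, the kinase phosphatase DUSP1 by 1.19, and the ETS factors ETV4 and ETV5 by 1.1 and 0.78. MYC rose by 0.93 ± 0.19, while CCND1, which encodes cyclin D1, was at 0.01 ± 0.12.

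Of 11 AP-1 subunits 9 rose and 0 fell, with a median of 1.13, and these counts were the same without any 1 of the 6 libraries. FOSB stood at 1.31, 1.58 and 1.86 CPM in controls and at 11.7, 13.4 and 8.67 CPM with anlotinib, a log2 fold change of 2.81 ± 0.23. ATF3, MAFF, FOS, FOSL1 and JUN rose by 2.23, 1.83, 1.6, 1.19 and 1.13. Of 13 cytokines and chemokines 9 rose and 0 fell, with a median of 1.81. CXCL8, the neutrophil chemokine interleukin 8, stood at 6.19, 5.602 and 6.32 CPM in controls and at 34.95, 39.95 and 18.5 CPM with the drug, a log2 fold change of 2.37 ± 0.27. Anlotinib library 12 was the lowest treated value for CXCL8 and still lay above all controls. CXCL1 and CXCL3 rose by 2.33 and 2.37, and CXCL2 by 2.25, but these 3 chemokines have similar sequences, and how reads that fit several genes were counted was not given. IL1B, which encodes interleukin 1 beta, went from 51.4 ± 7.54 to 180 ± 27.1 CPM, a log2 fold change of 1.81 ± 0.15. Among 15 NF-kB subunits and feedback genes 9 rose and 0 fell, with TNFAIP3, an inhibitor of NF-kB signalling, at 1.54 and RELB at 1.5. Markers of immune cells took 0.00267% to 0.00420% of control counts and 0.00484% to 0.00840% of anlotinib counts, and 2 of 4 tested markers rose and 0 fell. The markers moved in different directions. Over the controls and the treated libraries, LYZ had 1575 and 2308 counts, CD79A 267 and 907, CD14 80 and 30 and LAPTM5 65 and 54. PTPRC had 21 and 4, CD68 15 and 15, NKG7 10 and 4 and CD3E of T cells 2 and 0. The part of immune markers in the cytokine result was not tested.

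Some genes of glycolysis and of the hypoxia response rose. Of 22 glycolysis genes 13 rose and 2 fell, with a median of 0.42, but only 6 rose without control 8, without control 9 or without anlotinib 12. ALDOC stood at 3.75, 2.95 and 3.05 CPM in controls and at 47.6, 56.5 and 59.4 CPM with anlotinib, the largest rise among the genes named by the rule, at 4.07 ± 0.16 (edgeR adjusted p = 3.45e-06). Its exons overlap another gene by 10.1%. PFKFB4, which makes the activator of phosphofructokinase, rose by 2.04, the enolase ENO2 by 1.28, PGK1 by 0.92 and PGAM1 by 0.66. PFKFB3, a paralogue of PFKFB4, fell by 0.63. The log2 fold change of GAPDH was 0.32, that of PKM -0.18 and that of the glucose transporter SLC2A1 -0.01, none of them called.

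Of 19 hypoxia genes 12 rose and 0 fell, with a median of 0.57, and 7 rose without control 8. CA9, a carbonic anhydrase widely used as a marker of hypoxia, stood at 2.38, 2.90 and 2.84 CPM in controls and at 18.1, 30.5 and 23.02 CPM with the drug. Its log2 fold change was 3.13 ± 0.22 (edgeR adjusted p = 8.59e-05), and 38.5% of its exon bases overlap another gene. NDRG1 rose by 2.60, ADM by 1.71, BNIP3, a mitophagy receptor, by 1.54 and the collagen hydroxylase P4HA1 by 1.02. In NDRG1, BNIP3 and P4HA1 anlotinib library 11 held the highest treated value, at 130, 101 and 62.8 CPM against 68.7 to 72.2, 55.6 to 57.7 and 40.2 to 41.9 CPM in the other treated libraries. HIF1A, which encodes the oxygen-regulated factor itself, had a log2 fold change of -0.67 ± 0.30 and was not called (edgeR adjusted p = 0.134). VEGFA, a ligand of receptors that the drug inhibits, rose by 0.62 ± 0.17 (edgeR adjusted p = 0.0271), a call lost without control 8 (0.0839) or control 9 (0.0997). The promoter of CA9 is shown because its hypoxia response element lies just before the start (RefSeq, GRCh38.p14, the core ACGTG on either strand in capitals).
CA9, chr9:35673678-35673977, plus strand: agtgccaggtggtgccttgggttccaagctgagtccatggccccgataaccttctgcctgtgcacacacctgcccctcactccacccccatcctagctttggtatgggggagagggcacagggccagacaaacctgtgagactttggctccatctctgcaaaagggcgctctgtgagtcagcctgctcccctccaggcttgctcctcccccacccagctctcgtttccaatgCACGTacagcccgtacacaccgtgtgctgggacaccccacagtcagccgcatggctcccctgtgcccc
This core was present in 10 of 16 promoters of the hypoxia list (62.5%), in 21.6% of all promoters and in 26.5% of promoters of tested genes. It was not particular to the hypoxia list. Its share was 66.7% in a ribosome biogenesis list (12 of 18) and 57.1% in the lysosomal list (12 of 21). In the cholesterol list it was 11.8% (2 of 17).

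Stress programmes differed among themselves. Of 22 genes of the ATF4 and amino acid response 11 rose and 1 fell, with a median of 0.34, and 7 rose without control 9. GDF15, a secreted stress cytokine, stood at 520, 374 and 342 CPM in controls and at 2070, 2414 and 1952 CPM with anlotinib, a log2 fold change of 2.38 ± 0.17. The ATF4 partner DDIT3 rose by 1.58 (with 39.6% of its exon bases shared with another gene) and ATF4 itself by 0.82, while SLC7A11, the cystine transporter, fell by 0.97 (edgeR adjusted p = 0.0265). The SLC7A11 call was lost without control 8 (0.0979), control 9 (0.0913), anlotinib 10 (0.0587) or anlotinib 12 (0.0870). Of 20 cytosolic aminoacyl-tRNA synthetases 8 rose and 0 fell, led by CARS at 0.70, AARS at 0.69 and MARS at 0.68 (13.3% of its exon bases shared with another gene), and 4 rose without control 8 or control 9 and 5 without anlotinib 10. Of 24 p53 targets 10 rose and 0 fell, with a median of 0.40, led by GADD45A at 1.20 and FDXR at 0.95. The p53 target CDKN1A, which encodes the cell cycle inhibitor p21, rose by 0.44 ± 0.13 (edgeR adjusted p = 0.0386), and its call was lost without control 8 (0.139), control 9 (0.140), anlotinib 10 (0.134) or anlotinib 11 (0.0762).

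The NRF2 list of oxidative stress genes had 5 members that rose and 2 that fell among 20, with a median of 0.05, and 2 rose without control 8, control 9, anlotinib 10 or anlotinib 12. HMOX1, the heme oxygenase of that list, was chosen after its values were seen: it stood at 46.8, 40.7 and 41.8 CPM in controls and at 47.2, 34.2 and 41.5 CPM with the drug, and the groups overlapped. FTL, the ferritin light chain, rose by 0.88. Of 21 chaperones of the endoplasmic reticulum and genes of the unfolded protein response 0 rose and 8 fell, with a median of -0.32. HSPA5, the master chaperone BiP, stood at 1814, 1824 and 1814 CPM in controls and at 1153, 1101 and 958 CPM with anlotinib, a log2 fold change of -0.76 ± 0.10 (edgeR adjusted p = 0.0018). HSP90B1 fell by 0.94, and 4 members fell without control 8, control 9 or anlotinib 12 and 5 without anlotinib 10 or anlotinib 11. Of 34 lysosomal genes 11 rose and 2 fell, with NEU1, a sialidase, at 1.94, and 0 fell without control 8, control 9, anlotinib 10 or anlotinib 12 and 1 without anlotinib 11. Of 19 autophagy genes 3 rose, 1 fell (2 without anlotinib 10) and 15 were not called. Of all tested genes 11.9% rose and 12.2% fell. The cargo receptor SQSTM1 of the autophagy list rose by 1.41 (22% of its exon bases shared with another gene).

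Many genes of DNA synthesis fell while many genes of mitosis rose. Of 36 replication genes 1 rose and 18 fell, with a median of -0.54. The promoters of CDC6, which loads the replicative helicase, and of CLSPN, an activator of the S phase checkpoint kinase, are shown with the E2F site (TTTGGCGC or TTTCCCGC on either strand) in capitals (RefSeq, GRCh38.p14).
CDC6, chr17:40287629-40287928, plus strand: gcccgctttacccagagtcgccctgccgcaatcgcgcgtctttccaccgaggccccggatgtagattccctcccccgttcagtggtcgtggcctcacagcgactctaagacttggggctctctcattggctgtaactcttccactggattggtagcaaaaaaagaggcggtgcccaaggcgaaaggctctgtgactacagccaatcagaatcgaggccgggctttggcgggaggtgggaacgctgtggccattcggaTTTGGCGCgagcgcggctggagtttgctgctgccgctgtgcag
CLSPN, chr1:35769929-35770228, minus strand: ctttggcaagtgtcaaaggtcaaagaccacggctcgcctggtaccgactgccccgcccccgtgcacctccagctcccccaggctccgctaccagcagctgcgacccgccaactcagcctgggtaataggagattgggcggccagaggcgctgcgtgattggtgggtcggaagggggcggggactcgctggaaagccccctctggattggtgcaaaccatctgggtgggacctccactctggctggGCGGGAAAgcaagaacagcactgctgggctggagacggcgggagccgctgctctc
Either spelling was present in 15 of 32 replication promoters (46.9%) and in 2.31% of all promoters.

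CLSPN stood at 35.2, 41.0 and 38.7 CPM in controls and at 9.79, 12.6 and 13.3 CPM with anlotinib, a log2 fold change of -1.69 ± 0.15 (edgeR adjusted p = 0.000237). CDC6 went from 130 ± 20.2 to 65.2 ± 10.5 CPM, a log2 fold change of -1.0 ± 0.15. The primase subunit PRIM1 fell by 1.45 (with 21.6% of its exon bases shared with another gene), the helicase kinase CDC7 by 1.12 and the polymerase subunit POLD3 by 1.09. DBF4, the partner of CDC7, was the member that rose, at 0.79 ± 0.19 (edgeR adjusted p = 0.0195). Of 17 genes of homologous recombination and the Fanconi pathway 0 rose and 11 fell, with a median of -0.92, led by BRIP1 at -1.54. The median GC content of that list was 39.8%, and with a correction for GC content and length its median was -0.70 with 13 members falling. The replication list had a median GC content of 45.4% and a corrected median of -0.60 with 23 members falling. Between 12 and 15 replication genes and between 8 and 12 recombination genes fell when 1 library was left out, with 12 replication genes without control 8.

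Among regulators of the G1 phase, 3 of 21 tested genes rose and 6 fell, beside 11.9% of all tested genes that rose and 12.2% that fell. In this list 1 rose without control 8, control 9 or anlotinib 10. With the correction for GC content and length 1 rose and 9 fell. CCNE2, which encodes cyclin E2, the partner of CDK2 at S phase entry, stood at 19.8, 26.3 and 24.7 CPM in controls and at 4.86, 5.35 and 4.83 CPM with the drug. Its log2 fold change was -2.23 ± 0.16 (edgeR adjusted p = 8.59e-05), and 37.1% of its exon bases overlap another gene. CDK6, a partner of the D cyclins, stood at 212, 292 and 271 CPM in controls and at 71.0, 129 and 90.0 CPM with anlotinib, a log2 fold change of -1.42 ± 0.21. The repressors E2F7 and E2F8 fell by 1.39 and 1.42, and RBL1 by 1.19. CDKN2D, an inhibitor of CDK4 and CDK6, rose by 1.13, while CCND3, CDKN1B and RBL2 lay between -0.11 and 0.07 and were not called. The log2 fold change of CCNE1 was -1.05 and lost its call without anlotinib 11 (edgeR adjusted p = 0.0609) or anlotinib 12 (0.0905).

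Of 28 mitotic kinases, cyclins and regulators of the anaphase-promoting complex 14 rose and 3 fell, with a median of 0.59, against 11.9% and 12.2% of all genes. Of 12 kinesins of mitosis 6 rose and 0 fell, with a median of 0.53. In bulk RNA a change in the share of cells in a phase and a change in RNA per cell cannot be told apart. The promoters of CCNB2, PLK1 and CDC20, which rose, are shown with the CHR element (TTTGAA on either strand) and the CCAAT boxes in capitals (RefSeq, GRCh38.p14).
CCNB2, chr15:59104896-59105195, plus strand: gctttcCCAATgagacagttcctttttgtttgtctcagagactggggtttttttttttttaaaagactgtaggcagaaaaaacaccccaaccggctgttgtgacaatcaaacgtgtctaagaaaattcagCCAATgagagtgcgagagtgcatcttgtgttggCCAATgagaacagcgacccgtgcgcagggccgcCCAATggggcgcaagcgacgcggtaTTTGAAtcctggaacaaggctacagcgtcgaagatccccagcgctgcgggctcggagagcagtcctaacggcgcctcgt
PLK1, chr16:23678639-23678938, plus strand: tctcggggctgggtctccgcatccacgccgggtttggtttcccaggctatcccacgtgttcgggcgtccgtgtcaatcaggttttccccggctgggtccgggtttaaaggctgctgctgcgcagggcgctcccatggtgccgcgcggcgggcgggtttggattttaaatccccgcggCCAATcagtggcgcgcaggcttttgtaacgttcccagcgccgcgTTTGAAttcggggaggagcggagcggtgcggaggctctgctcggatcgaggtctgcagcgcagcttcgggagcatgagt
CDC20, chr1:43358731-43359030, plus strand: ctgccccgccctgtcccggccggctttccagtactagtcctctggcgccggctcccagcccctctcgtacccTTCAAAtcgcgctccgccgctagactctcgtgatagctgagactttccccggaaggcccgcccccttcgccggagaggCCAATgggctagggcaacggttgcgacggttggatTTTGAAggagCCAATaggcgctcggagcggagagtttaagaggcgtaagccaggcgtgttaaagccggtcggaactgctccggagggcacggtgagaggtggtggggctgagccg
The CHR letters were present in 11 of 21 promoters of the mitotic kinase list (52.4%), 9 of 12 of the kinesins (75.0%), 17 of 26 of the kinetochore list (65.4%) and 8 of 11 of the condensin, cohesin and topoisomerase list (72.7%), against 15.4% of all promoters and 1 of 32 replication promoters (3.12%).

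AURKA, the Aurora A kinase of the spindle pole, stood at 67.3, 95.7 and 91.7 CPM in controls and at 300, 282 and 377 CPM with anlotinib, a log2 fold change of 1.91 ± 0.16 (edgeR adjusted p = 0.000208). CDC20, the activator of the anaphase-promoting complex, stood at 118, 140 and 128 CPM and at 361, 344 and 505 CPM, a log2 fold change of 1.65 ± 0.15. Anlotinib library 12 was the highest for both genes, and control 7 the lowest. CCNB1 and CCNB2, the B cyclins, rose by 1.64 and 1.59, CKS2, which docks CDK1 to its substrates, by 1.88, PLK1 by 1.46 (12.5% of its exon bases shared with another gene) and the motor KIF20A by 1.6. CDK1, the catalytic partner of the B cyclins, moved against its cyclins: it stood at 58.4, 112 and 105 CPM in controls and at 30.1, 30.4 and 34 CPM with the drug. The groups did not overlap, and the log2 fold change was -1.54 ± 0.22 (edgeR adjusted p = 0.00266). UBE2C and WEE1 also fell, by 0.61 and 0.60, and both calls were lost without control 8 (edgeR adjusted p = 0.0515 and 0.0597). TOP2A, the topoisomerase that untangles chromosomes, stood at 185, 421 and 411 CPM in controls and at 82.7, 124 and 131 CPM with anlotinib, with control 7 far below the other controls, and fell by 1.59. MKI67, the proliferation marker, went from 339 ± 69.8 to 329 ± 49.4 CPM, overlapped between groups and was not called (log2 fold change -0.04 ± 0.17). Of 12 condensin, cohesin and topoisomerase genes 0 rose and 2 fell, with a median of -0.22, and 5 fell without control 7 and 1 without control 8, control 9 or anlotinib 10. Of 28 kinetochore and spindle genes 3 rose and 2 fell, with a median of 0.04, and 0 fell without control 8, control 9 or anlotinib 12 and 1 without anlotinib 11. With the correction for GC content and length 10 rose and 2 fell, and the median GC content of the list was 40.2%.

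When the cell cycle lists were pooled and split by promoter letters, the 47 tested genes with a CHR and no E2F site had a median of 0.13, with 11 that rose and 4 that fell. The 23 genes with an E2F site and no CHR had a median of -0.54, with 0 that rose and 10 that fell. The 67 genes with neither had a median of -0.20, with 12 that rose and 23 that fell. Over all 141 pooled genes with a promoter window 24 rose and 37 fell, with a median of -0.16. These medians describe lists chosen with earlier results of these data known and carry no test.

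The direction of the mitotic genes was not shared by RBE. In a model of all 12 libraries, the effect in RBE minus that in HCCC9810 was called for 2990 of 18035 genes (16.6%), with the signed log2 fold change higher in HCCC9810 for 1382 (7.66%) and higher in RBE for 1608 (8.92%). Higher here refers to sign: a gene that fell further in HCCC9810 is higher in RBE. Scaling by library totals in place of TMM raised the share higher in RBE to 65.7% of 3165 calls and put the median difference of all genes at 0.22. The number called ran from 1473 without RBE anlotinib 5 to 4865 without RBE anlotinib 6, and was 1784 without RBE control 1, 1641 without RBE control 3, 1565 without RBE anlotinib 4, 1727 without HCCC9810 control 8 and 1681 without HCCC9810 control 9. Of the 28 mitotic kinases, cyclins and regulators, 22 had a higher fold change in HCCC9810 and 0 in RBE, and of 12 kinesins 7 and 0. In RBE, where 9.37% of all tested genes rose and 8.32% fell, 0 of the 28 rose and 24 fell, with a median of -0.91. AURKA differed by -2.62 ± 0.21 (RBE minus HCCC9810, edgeR adjusted p = 7.88e-06) and KIF20A by -2.89 ± 0.23. Replication genes differed in fewer cases: 5 of 36 were higher in HCCC9810 and 2 in RBE, and 34 of the 36 fell in RBE, with a median of -0.77 against -0.54 in HCCC9810. CDK1 and TOP2A, at -1.44 and -1.58 in RBE, differed by 0.10 ± 0.33 and 0.01 ± 0.46, neither called.

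**Figure D3:**
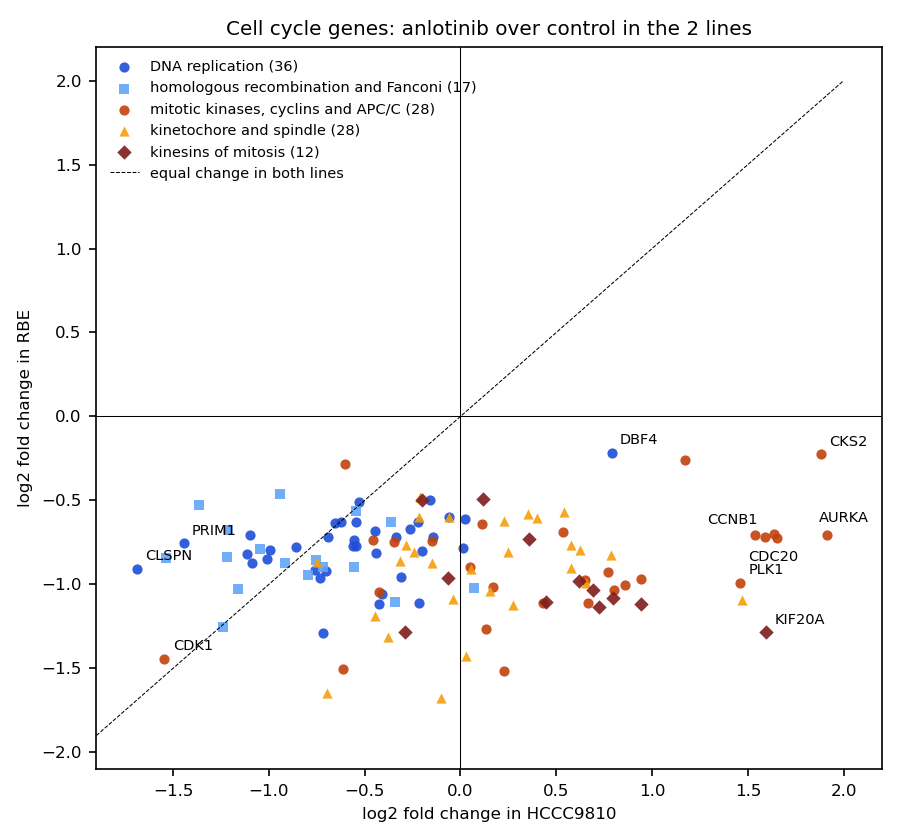
Log2 fold change of anlotinib over control in RBE (vertical axis) against that in HCCC9810 (horizontal axis) for the tested genes of 5 cell cycle lists, 1 point per gene, with a dashed line of equal change. Replication and recombination genes lie at or below 0 in both lines except DBF4 and a few values just above 0 in HCCC9810, while AURKA, CKS2, CCNB1, CDC20, PLK1 and KIF20A lie to the right of 0 in HCCC9810 and below 0 in RBE.

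Other differences from RBE were found in the metabolic and stress lists. Of 22 glycolysis genes 9 had a higher fold change in HCCC9810 and 1 in RBE, and LDHA, at 0.42 in HCCC9810 and -0.81 in RBE, is an example; its call in HCCC9810 was lost without control 8, control 9 or anlotinib 12 (edgeR adjusted p = 0.0855, 0.0755 and 0.0733). Of 19 hypoxia genes 8 were higher in HCCC9810 and 2 in RBE, with CA9 at -1.09 ± 0.36 in RBE and a difference of -4.23 ± 0.42 (edgeR adjusted p = 2.92e-05). Of 20 NRF2 genes 9 were higher in RBE and 1 in HCCC9810, and HMOX1 differed by 2.44 ± 0.24. Of the 22 cholesterol enzymes 4 were higher in each line, and 14 were not called as different. SREBF1 rose in HCCC9810 and was at -0.32 ± 0.17 in RBE, a difference of -1.37 ± 0.24 (edgeR adjusted p = 0.00228), and SCD differed by -1.20 ± 0.15.

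Many epithelial keratins, TGF beta genes and collagens fell. Of 12 tested keratins 0 rose and 11 fell, with a median of -1.08. KRT4, a keratin of stratified epithelia, stood at 211, 137 and 130 CPM in controls and at 12.98, 9.32 and 11.2 CPM with anlotinib, a log2 fold change of -3.84 ± 0.22 (edgeR adjusted p = 4.55e-05). KRT7, a keratin that defines bile duct cells, stood at 5239, 3517 and 3002 CPM in controls and at 1915, 1966 and 1878 CPM with the drug, a log2 fold change of -1.03 ± 0.19. Control 7 held the highest KRT7 and KRT4 values, and the treated libraries lay close together below all controls. KRT19 fell by 0.89 ± 0.13, KRT18 by 0.71 (with 16.3% of its exon bases shared with another gene) and KRT17 by 3.63 ± 0.72 from 0.636 to 2.69 CPM in controls. KRT8 was at -0.66, a call lost without anlotinib 12 (edgeR adjusted p = 0.0592). The marker genes of bile duct epithelium together took 1.17% to 1.52% of control counts and 0.657% to 0.760% of anlotinib counts, while EPCAM (-0.05), SOX9 (-0.10) and MUC1 (0.05) of the same list were not called. In RBE 2 of the 12 keratins rose and 1 fell, with a median of 0.14, and the fold change of 8 of the 12 was higher in RBE than in HCCC9810.

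Of 22 TGF beta ligands, receptors and targets 0 rose and 15 fell, with a median of -0.74. PMEPA1, a feedback inhibitor of the pathway, stood at 199.8, 150.3 and 136 CPM in controls and at 39.5, 37.4 and 37.8 CPM with anlotinib, a log2 fold change of -2.08 ± 0.15 (edgeR adjusted p = 8.59e-05). The feedback genes SKIL and SMAD7 fell by 1.85 and 1.01. ID3, a target of the related BMP branch, stood at 209, 153 and 155 CPM in controls and at 81.2, 36.1 and 66.0 CPM, and fell by 1.5. The ligand TGFB3 and the receptor TGFBR3 fell by 1.21 and 0.94, while TGFB1, TGFBR2 and SMAD3 had log2 fold changes of -0.14, 0.19 and 0.23 and were not called. The highest log2 fold change in the list was 1.01, and it was not called either. In RBE 3 of the 22 rose and 5 fell, with a median of -0.22, and the fold change was higher in RBE for 10 and higher in HCCC9810 for 2. Between 11 and 15 fell when 1 library was left out, and 2 rose without control 7.

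Of 18 collagens 0 rose and 8 fell, with a median of -0.48, among them COL4A1 of basement membranes at -1.34 and COL5A1 at -1.22. Matrix proteases and their inhibitors split: 1 of 13 tested genes rose and 4 fell, with log2 fold changes from -1.54 to 2.90. Without control 7, 3 rose, and 2 fell without control 8, anlotinib 10 or anlotinib 12. Over all tested genes 11.9% rose and 12.2% fell. PLAT, the tissue plasminogen activator, stood at 2663, 2592 and 2972 CPM in controls and at 1462, 1394 and 1390 CPM with anlotinib, a log2 fold change of -0.95 ± 0.10. TFPI2, a protease inhibitor of the matrix, fell by 1.49, and MAP1B, a microtubule-associated protein, by 2.76 ± 0.19 from 14.8, 19 and 18.3 CPM to 2.33, 2.99 and 2.31 CPM. FOXS1, a forkhead factor of the mesenchymal list, fell by 4.09 ± 0.47 from a low level of 3.21 to 5.75 CPM. Fibroblast markers moved beside the collagens: 0 of 5 tested ones rose and 3 fell (1 without control 9), and together they took 0.00415% to 0.00609% of control counts and 0.00157% to 0.00258% of anlotinib counts. LUM was the most abundant of them, at 8.90 to 13.7 RPKM (the deposited length-scaled unit) in controls, while PDGFRA and THY1 held 4 counts each over the controls. The marker list itself includes the collagen genes COL1A2 and COL3A1, so markers and collagens are partly genes of the same kind. COL3A1 held 567 counts over the controls and 127 over the treated libraries. The part of fibroblast markers in the collagen result was not tested.

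**Figure D4:**
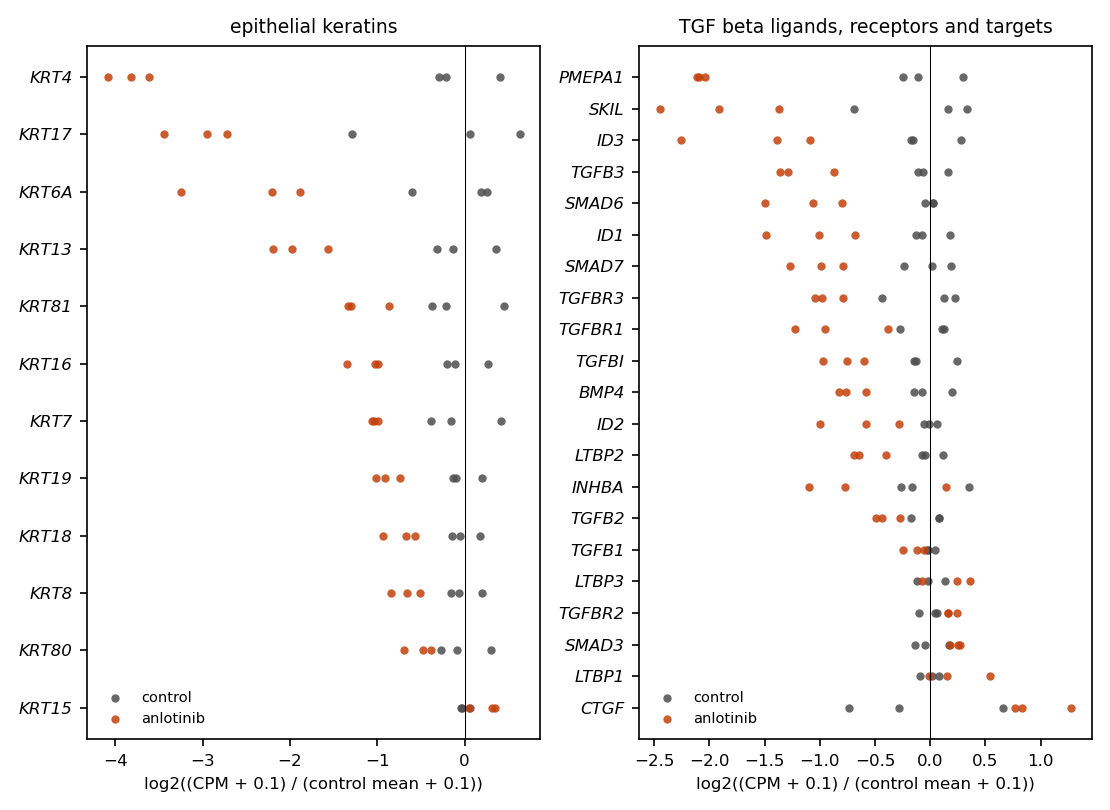
Level in each HCCC9810 library relative to the control mean, as log2((CPM + 0.1) / (control mean + 0.1)) on the horizontal axis, for the 12 tested keratins (left) and genes of the TGF beta list (right, not every member drawn), with controls in grey and anlotinib in orange. All anlotinib points lie left of all control points for 11 of the 12 keratins, with KRT15 as the exception. The groups did not overlap, in either direction, for 41.6% of all tested genes.

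Of 20 ABC transporters and drug metabolism genes 0 rose, 6 fell and 14 were not called, among them CYP24A1, which degrades vitamin D, at -2.12, ALDH1A1 at -1.36, the efflux pump ABCB1 at -1.28 and ABCG2, a further efflux pump, at -0.74. In RBE ABCB1 and ABCG2 rose by 0.84 and 1.79, and the fold change of 8 of the 20 was higher in RBE and of 0 higher in HCCC9810. Of 8 tested WNT target genes 0 rose and 4 fell, with AXIN2, a feedback inhibitor, at -1.83 (25.2% of its exon bases shared with another gene), and 2 fell without control 8, control 9, anlotinib 10 or anlotinib 11. Of 29 interferon genes 4 rose, 7 fell and 18 were not called, beside 11.9% of all tested genes that rose and 12.2% that fell. SAMD9 was at -2.27, SAMD9L at -2.11 and IFI44L at -3.32, against ISG20 at 1.35. In this list 1 rose without control 8, control 9, anlotinib 10 or anlotinib 12 and 2 without anlotinib 11. SAMD9 stood at 83.4, 199.7 and 218 CPM in controls and at 19.2, 54.4 and 30.4 CPM with the drug. Of 20 apoptosis regulators 4 rose, 4 fell and 12 were not called, with a median of 0.08. Between 2 and 4 of them rose, and between 2 and 4 fell, when 1 library was left out. BMF, a pro-apoptotic member of the BCL2 family, fell by 1.91, and BIK and BAX rose by 1.0 and 0.55.

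Several lists depended on single libraries and are given as counts only. Of 13 mitochondrially encoded genes 2 rose, 12 without control 7, 1 without anlotinib 11 and 0 without control 8, control 9, anlotinib 10 or anlotinib 12. Of 25 proteasome genes 5 rose, 11 without control 7, 3 without anlotinib 11 and 0 without control 8, control 9, anlotinib 10 or anlotinib 12. Nuclear genes of oxidative phosphorylation had 6 that rose of 27, 10 without control 7, 0 without control 8, 1 without control 9 or anlotinib 12 and 2 without anlotinib 10.

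Long non-coding genes made up 1652 of the tested genes, of which 5.45% rose and 12.7% fell, against 13.2% and 12.5% of 12814 protein-coding genes. H19, an imprinted fetal transcript, stood at 11720, 8944 and 9658 CPM in controls and at 6467, 4441 and 6044 CPM with anlotinib, the largest fall in abundance in HCCC9810, with a log2 fold change of -0.84 ± 0.17 (edgeR adjusted p = 0.0086). AC144652.1 and AC026401.3 led the long non-coding rises at 2.17 and 1.74, followed by SIRPG-AS1, PICART1 and OLMALINC at 1.36, 1.31 and 1.27. AC048341.1 and LINC00842 led the falls at -2.19 and -2.13, followed by AC015813.1, AL157937.1 and COLCA1 at -1.70, -1.63 and -1.61.

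Fold changes in HCCC9810 followed transcript GC content (Spearman rho of 0.327 over 15641 genes, which do not count as replicates). Among the 3129 genes of lowest GC content, up to 41.3%, 2.65% rose and 20.9% fell, and among the 3127 of highest, from 58.2%, 20.2% rose and 6.36% fell. The correction for GC content and length brought rho to -0.03 and called 1810 genes that rose and 2444 that fell, of which 2928 were among the 3772 calls and had the same direction. The cholesterol list was 21 up and 1 down with a median of 2.13 after that correction, the mitotic kinase list 15 up and 5 down at 0.66, the keratins 0 up and 11 down at -1.32 and the TGF beta list 1 up and 15 down at -0.80. Other lists moved more: after the correction 9 of 22 glycolysis genes rose in place of 13, 8 of 22 ATF4 genes in place of 11 with a median of 0.19 in place of 0.34, and the lysosomal median was 0.15 in place of 0.27. In the interferon list 1 rose and 13 fell in place of 4 and 7. The ERK feedback list was 11 up and 1 down with a median of 0.58 in place of 0.76. The AP-1 list was 8 up and 0 down with a median of 0.91 in place of 1.13.

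**Figure D5:**
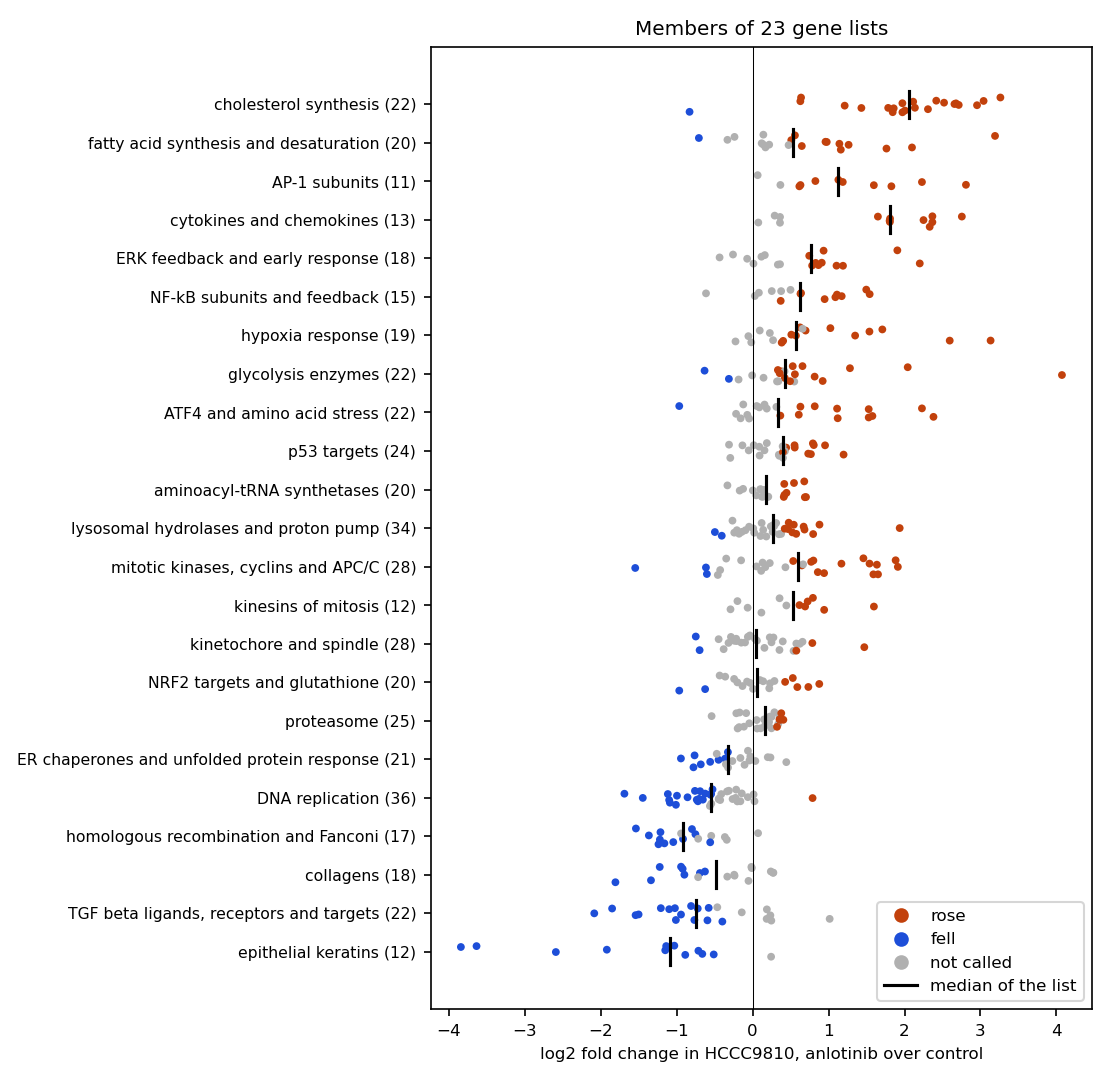
Log2 fold change in HCCC9810 (horizontal axis) of the tested members of 23 gene lists, 1 point per gene, with members that rose in orange, members that fell in blue, members not called in grey and the median of each list as a black bar. The cholesterol list has the highest median at 2.06 and the keratin list the lowest at -1.08.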

How the data were processed

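Total RNA of 12 cultures was read on an Illumina instrument, and the 6 HCCC9810 libraries carry the results. The deposited table holds raw gene counts and RPKM values made by the authors. HISAT2 and the build GRCh38 are named per the submitters' processing notes, while the counter, annotation, strand setting and handling of reads that match several genes are not stated there. RPKM are reads per kilobase of transcript and per mapped reads, as deposited.

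Counts were tested with edgeR 4.0.16 in R 4.3.3 (filterByExpr, TMM scaling, quasi-likelihood F-test, Benjamini-Hochberg adjustment, called at 0.05) on the 6 libraries, and the difference between lines as an interaction over all 12. CPM values are TMM-scaled. SE is the log2 fold change divided by the square root of F. Replicate pairs differed beyond counting noise. Alternatives were DESeq2 1.42.0, limma 3.58.1 on log2(RPKM + 1) or + 0.1, other scalings and filters, a GC and length correction with mgcv 1.9.3, and leaving out each library. The procedure was tested on simulated data.

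The members and gene lists were chosen with earlier results of these data known. Named genes were the 12 largest rises and 12 largest falls of at least 5 CPM with ranges that do not overlap, the 8 largest changes of abundance and the 5 largest of long non-coding genes in each direction, up to 5 called members of each list in each direction, the members of 4 lists, 11 fixed genes (SREBF1, SREBF2, INSIG2, MYC, HIF1A, VEGFA, CDKN1A, MKI67, CCND1, KRT7 and KRT19), and the 8 genes of smallest p in each direction of the difference. ACLY, DUSP4, ETV5, JUN, IL1B, P4HA1, ATF4, HMOX1, CDC6, PLK1, SMAD7, TGFBR3, TGFB1, TGFBR2, SMAD3, EPCAM, SOX9, MUC1, SCAP, KRT15 and the marker genes given beside results were chosen after their values were seen. Promoters are RefSeq windows of GRCh38.p14. Some members of the lists are counted but not reported here by name.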

Additional observations from a re-analysis of the deposited data

Results flagged for a closer look

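The anlotinib effect differed between the lines for 16 genes named by rank, by the interaction term of edgeR's quasi-likelihood test over 12 libraries (Benjamini-Hochberg adjusted p from 2.6e-07 to 2.16e-05). Values are the log2 fold change in RBE minus that in HCCC9810. A positive value means a higher signed fold change in RBE, not a larger change there: KRT4 was at -3.84 in HCCC9810 and 2.86 in RBE, and MAP1B at -2.76 and 0.72. The fold change was higher in RBE for KRT4 by 6.70, GCNT4 by 3.57, NPC1L1 by 3.55, MAP1B by 3.48, SLAMF7 by 3.15, the antisense gene IGFL2-AS1 by 2.41, RHOBTB3 by 1.87 and HEG1 by 1.68. It was higher in HCCC9810 for the other 8 genes: the difference was -3.32 for the helicase PIF1, -2.89 for KIF20A, -2.62 for AURKA, -2.60 for PIMREG, -2.48 for TROAP, -2.31 for CCNB2, -2.25 for the securin PTTG1 and -1.99 for the spindle protein SPAG5. The exons of SPAG5 overlap another gene by 15.9%.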

How the results depend on the processing

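Of the calls shared between the reported fit and each alternative run, 0 changed direction. Against 3772 calls (1857 rose, 1915 fell), limma on log2(RPKM + 1) without a filter called 804 (424 and 380), and leaving out 1 library called 1483 to 5301 genes, with 745 to 2695 that rose and 738 to 2606 that fell. For the difference between lines, the GC and length correction called 4518 genes, 2872 of them higher in RBE, and leaving out 1 library called 1473 to 4865, with 836 to 2467 higher in RBE and 627 to 2398 higher in HCCC9810. The cause was not tested. The 16 genes ranked by the difference kept call and direction in all 288 results. They were picked by smallest p from the same libraries, so these results are not independent evidence for them. Among 364 named genes, 207 lost their call under at least 1 alternative and 9 gained one. No paired analysis was possible because the groups compared share no replicate numbers. Genes at low counts are limited by depth.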
